A study of Mus musculus with 4 samples.

Results

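The cells described here were bone monocytes with transcripts of Serpinb2, Ptgs2 and Il1a, and 598 of the 31279 barcodes that passed the quality filters (40003 in all) belonged to them. They were selected on measured UMI counts (unique molecular identifiers, 1 per captured transcript). A barcode had to hold at least 4 UMIs of Csf1r, Ms4a6c, Ccr2 and Vcan together and at least 4 UMIs of Serpinb2, Ptgs2 and Il1a together. It also had to hold fewer than 3 UMIs of Inhba, Gpnmb and Pdpn, fewer than 5 of C1qa, C1qb and C1qc, fewer than 10 of Mpo, Elane, Prtn3 and Ctsg, and fewer than 3 of Top2a, Mki67 and Cdk1. Barcodes entered with 1000 to 40000 UMIs and 200 or more genes, and left where mitochondrial UMIs exceeded 10% or haemoglobin UMIs 0.2%.

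Single-cell RNA sequencing compared bone tissue of 2 control mice (Ctrl) with that of 2 mice under hindlimb unloading (HLU), with 1 library per mouse. Tail suspension for 28 days kept the hindlimbs of the HLU mice off the ground, a model of bone loss in weightlessness, and the Ctrl mice were not suspended. All mice were wild type, and no allele, transgene or agent differed between the groups. The sources disagree on age, which is given as postnatal day 28 in the series description and as 8 weeks in the methods. Marrow was washed out of the tibiae and femurs, and the bone that was left was digested with enzymes into single cells. The libraries held 57925383 (Ctrl 1), 61296053 (Ctrl 2), 47819046 (HLU 1) and 99849070 UMIs (HLU 2).

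Classical monocytes leave the marrow through the chemokine receptor CCR2 and become inflammatory cells when they sense microbial products, cytokines or damaged tissue. NF-kB and AP-1 then switch on genes for interleukin 1, neutrophil-attracting chemokines and prostaglandin synthesis. Serpinb2 encodes plasminogen activator inhibitor 2, Ptgs2 encodes cyclooxygenase 2, which feeds prostaglandin E2 synthesis, and Il1a encodes interleukin 1 alpha. Monocytes of this kind matter in bone because osteoclasts arise from the same lineage and because interleukin 1 and prostaglandin E2 stimulate bone resorption.

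Serpinb2 (ENSMUSG00000062345) lies at chr1:107511423-107535478 on the plus strand of mm10, Ptgs2 (ENSMUSG00000032487) at chr1:150100031-150108227 on the plus strand, and Il1a (ENSMUSG00000027399) at chr2:129299610-129309972 on the minus strand. Il1b (ENSMUSG00000027398) lies beside Il1a at chr2:129364570-129371139 on the minus strand, and Cxcl3 (ENSMUSG00000029379) at chr5:90786103-90789600 on the plus strand. The 150 bases before the first RefSeq transcription start (GRCm38.p6, gene strand) are shown for these 5 genes, since the first 3 made the selection and Il1b and Cxcl3 were markers outside it. The windows are chr1:107511273-107511422 (Serpinb2), chr1:150099881-150100030 (Ptgs2), chr2:129309973-129310122 (Il1a), chr2:129371140-129371289 (Il1b) and chr5:90785951-90786100 (Cxcl3). Capitals mark matches on either strand. The letters sought were TATAAA for the TATA box, ACGTCA for the cyclic AMP response element (CRE), TGANTCA for AP-1 and TTGCNNAA for C/EBP. For kappaB they were GGGA followed, after any 2 bases, by TTCC.
Serpinb2: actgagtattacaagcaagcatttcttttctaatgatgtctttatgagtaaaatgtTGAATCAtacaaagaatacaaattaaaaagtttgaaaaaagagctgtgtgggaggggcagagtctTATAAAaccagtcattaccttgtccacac
Ptgs2: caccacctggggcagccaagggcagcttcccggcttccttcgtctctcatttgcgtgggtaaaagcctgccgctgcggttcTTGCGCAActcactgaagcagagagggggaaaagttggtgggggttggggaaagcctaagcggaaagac
Il1a: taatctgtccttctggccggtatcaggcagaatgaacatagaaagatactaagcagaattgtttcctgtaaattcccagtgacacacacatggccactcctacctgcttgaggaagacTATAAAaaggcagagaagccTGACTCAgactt
Il1b: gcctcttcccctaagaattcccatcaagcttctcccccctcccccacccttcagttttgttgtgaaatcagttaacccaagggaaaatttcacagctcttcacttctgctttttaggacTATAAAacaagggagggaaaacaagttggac
Cxcl3: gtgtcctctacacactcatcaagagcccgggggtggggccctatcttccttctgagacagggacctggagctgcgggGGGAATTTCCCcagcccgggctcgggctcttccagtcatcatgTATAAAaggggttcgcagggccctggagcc
Cxcl3 held a kappaB match on both strands, 73 and 72 bases before its start and overlapping each other, and its neighbour Cxcl2 held the same pair 97 and 96 bases before its start. Of 32851 promoters of this length, 0.788% held a kappaB match. AP-1 matches stood 94 bases before the Serpinb2 start and 12 bases before the Il1a start (4.24% of all promoters held one), and Ptgs2 held a C/EBP match 69 bases upstream (5.46% of all). TATA matches stood near the starts of Serpinb2, Il1a, Il1b and Cxcl3 (7.57% of all), and none of these 5 windows held a CRE match (5.15% of all). A match is a string of letters and was not tested for binding.

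One library stood apart. HLU 2 held 312 of the 598 cells, against 70 in Ctrl 1, 104 in Ctrl 2 and 112 in HLU 1. Summed over the inflammatory monocytes, gene counts of HLU 2 differed from those of the other libraries with a chi-square per degree of freedom of 39 to Ctrl 1, 54.7 to Ctrl 2 and 46.2 to HLU 1. Between the other libraries the same measure was 4.8 (Ctrl 1 and Ctrl 2), 5.18 (Ctrl 1 and HLU 1) and 9.76 (Ctrl 2 and HLU 1). This measure sets separate mice against counting noise alone and grows with the number of UMIs, of which the cells of HLU 2 held 4151404 and those of the other libraries 696007 (Ctrl 1), 986130 (Ctrl 2) and 1339860 (HLU 1). Barcode sequences shared between pairs of libraries numbered 23 to 36, and 0 of them belonged to inflammatory monocytes in both. The cells held a median of 8521 UMIs in Ctrl 1, 7611.5 in Ctrl 2, 10489 in HLU 1 and 12361 in HLU 2, against 6307, 5936, 3875 and 6471.5 over all barcodes that passed.

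Myeloid and classical monocyte transcripts were present, though some classical markers were missing from most cells of a library. Lyz2, the lysozyme of myeloid cells, had a UMI in 97.1%, 95.2%, 100% and 99.4% of them in Ctrl 1, Ctrl 2, HLU 1 and HLU 2, and Cd14, a co-receptor for bacterial lipopolysaccharide, in 100%, 99%, 99.1% and 98.1%. F13a1, a coagulation factor subunit typical of classical monocytes, had a UMI in 85.7%, 88.5%, 84.8% and 36.2%, and Ly6c2, the classical monocyte surface antigen, in 41.4%, 35.6%, 71.4% and 81.7%. Of the genes used for selection, Ccr2 had a UMI in 60%, 49%, 59.8% and 24% and Csf1r, the receptor for macrophage colony-stimulating factor, in 92.9%, 88.5%, 93.8% and 92.3%. HLU 2 was thus low in F13a1 and Ccr2 and high in Ly6c2. Ly6g, which marks neutrophils, had a UMI in 0%, 0.962%, 0% and 3.53%, and Flt3, which marks dendritic cells, in 0%, 2.88%, 0.893% and 0.641%. The 11 dendritic cell genes of a list summed to 38.8, 86.2, 49.3 and 133 CPM, led in each library by Bst2. In each library 5 of them had 0 UMIs, Cd209a and Siglech among them.

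Transcripts of other cell types were counted over whole lists. The 11 T and NK cell genes summed to 0, 21.3, 0.746 and 3.37 CPM, with 11, 5, 10 and 6 of them at 0. The 11 B cell genes summed to 21.6, 161, 181 and 6.26 CPM, led in each library by Ighm. S100a8, abundant in neutrophils and also made by monocytes, had a UMI in 98.6%, 99%, 100% and 99.4% of the cells. The 15 neutrophil transcripts summed to 4932, 8845, 8923 and 16944 CPM, led by Lcn2 in Ctrl 1, S100a8 in Ctrl 2 and HLU 2 and S100a9 in HLU 1. In B cells these 15 genes summed to 5200, 23811.5, 49279 and 51447 CPM, more than in the inflammatory monocytes of each library. Skeletal transcripts (27 genes of cartilage, bone and synovium) summed to 3803, 12261, 599 and 414 CPM. In B cells, which do not make them, the same list summed to 7541, 16427, 132 and 264 CPM. Both Ctrl libraries were therefore high in skeletal RNA in inflammatory monocytes and B cells alike.

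Which of the 3 selecting genes brought a cell in differed between libraries. Ptgs2 reached 4 UMIs in 59 of 70 cells of Ctrl 1, 92 of 104 of Ctrl 2, 91 of 112 of HLU 1 and 153 of 312 of HLU 2. Serpinb2 reached 4 UMIs in 23, 28, 28 and 227 cells, and Il1a in 6, 4, 2 and 89 cells. Ptgs2 alone was detected in 37, 62, 53 and 18 cells, and all 3 genes together in 10, 10, 11 and 153 cells. The class was thus led by Ptgs2 in Ctrl 1, Ctrl 2 and HLU 1 and by Serpinb2 in HLU 2. The 53 cells with exactly 4 selecting UMIs held 116 Ptgs2, 72 Serpinb2 and 24 Il1a UMIs and a median of 8982 UMIs in all. The 64 barcodes left out with exactly 3 held 115 Ptgs2, 49 Serpinb2 and 28 Il1a UMIs and a median of 11933.5 UMIs.

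Levels of the selecting genes are descriptions of the choice. Serpinb2 stood at 721, 539, 237 and 1097 CPM in the inflammatory monocytes of Ctrl 1, Ctrl 2, HLU 1 and HLU 2. Ptgs2 stood at 1593, 2140, 1067 and 482 CPM, and Il1a at 70.4, 40.6, 26.9 and 251 CPM. HLU 2 was lowest in Ptgs2 and highest in Serpinb2 and Il1a, while HLU 1 was lowest in both of the latter. Free RNA in droplets was gauged in B cells. Serpinb2 had a UMI in 40%, 37.5%, 44.6% and 89.1% of inflammatory monocytes and in 0.709%, 0.38%, 0.311% and 1.64% of B cells, at median depths of 3537, 3883, 3702.5 and 2406 UMIs in the B cells. Ptgs2 had one in 94.3%, 97.1%, 94.6% and 75.3% of inflammatory monocytes and in 3.55%, 6.08%, 1.86% and 2.19% of B cells.

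**Figure D1:**
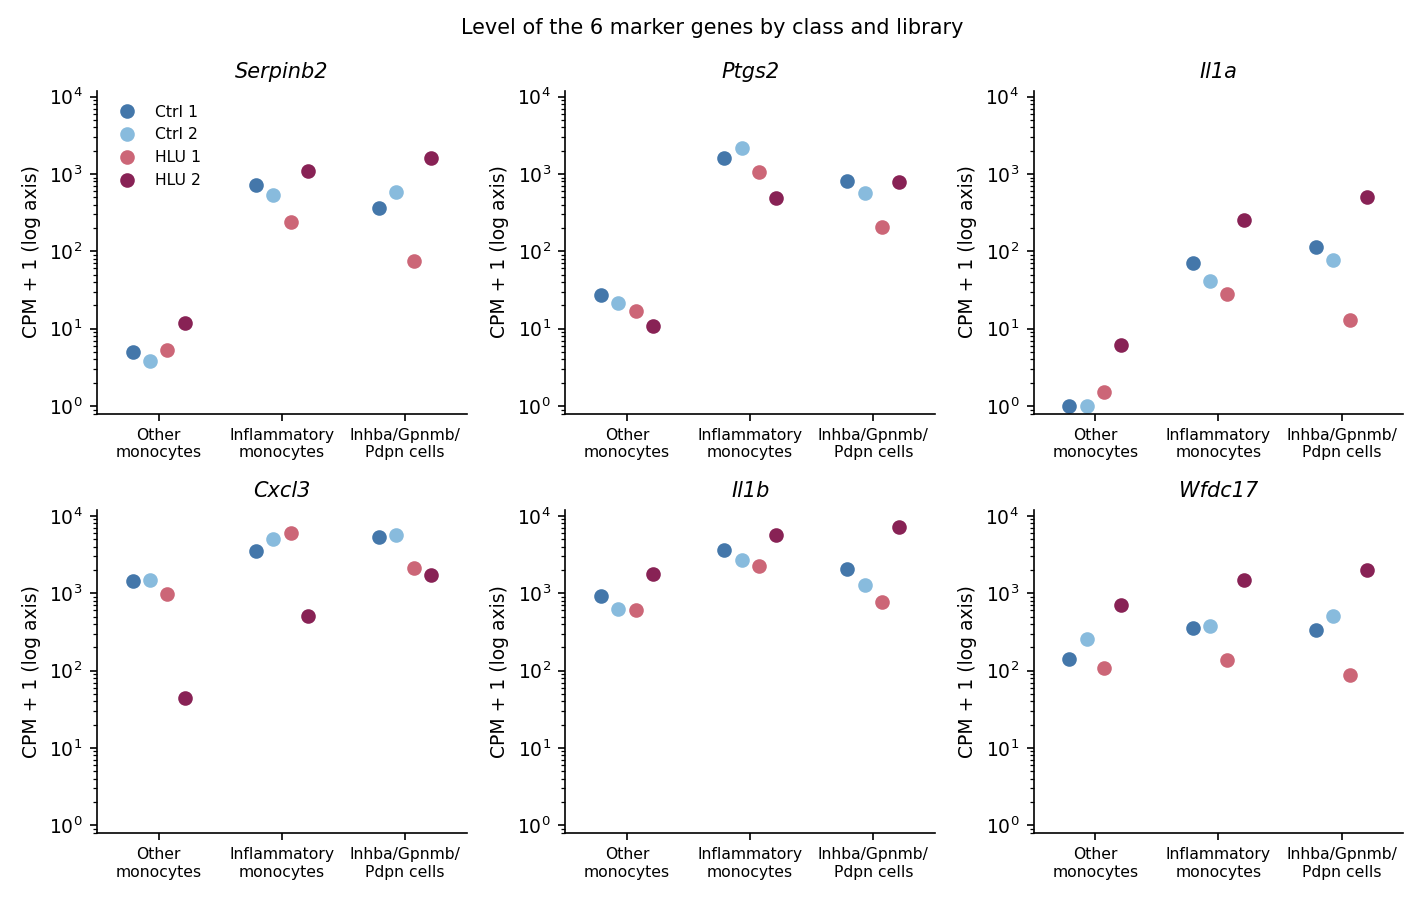
Level of Serpinb2, Ptgs2, Il1a, Cxcl3, Il1b and Wfdc17 in each library (CPM + 1, log axis) for other monocytes, inflammatory monocytes and cells with Inhba, Gpnmb or Pdpn, 1 point per library and class, with no error bar. The first 3 genes served for selection; HLU 2 (dark red) is high in Il1b and Wfdc17 and low in Cxcl3, at 514 CPM, in the inflammatory monocytes.

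The other 3 marker genes were not part of the selection. Cxcl3 encodes a chemokine that attracts neutrophils, and it stood at 3488, 4953, 6051 and 514 CPM. Il1b, interleukin 1 beta, stood at 3632, 2674, 2267 and 5742 CPM, and Wfdc17, a small secreted WAP-domain protein of activated macrophages, at 359, 381, 135 and 1469 CPM. The Ctrl values lay between the HLU values for all 3 genes, so the groups overlapped. Cxcl3 had a UMI in 65.7%, 71.2%, 72.3% and 49.4% of the cells, Il1b in 85.7%, 80.8%, 84.8% and 99.7%, and Wfdc17 in 48.6%, 51.9%, 34.8% and 92.9%. With each cell thinned to 2000 UMIs (1 shallower cell left out, in Ctrl 1) these shares were 56.5%, 57.7%, 59.8% and 32.1% for Cxcl3, 72.5%, 65.4%, 69.6% and 97.4% for Il1b, and 30.4%, 29.8%, 10.7% and 73.1% for Wfdc17. In B cells, without thinning, Cxcl3 had a UMI in 7.09%, 21.7%, 12% and 2.74%, Il1b in 7.8%, 12.2%, 10.7% and 19.5%, and Wfdc17 in 3.55%, 4.56%, 3.26% and 6.03%.

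The class was not uniform within a library. In Ctrl 1, the 23 cells with at least 4 Serpinb2 UMIs held Cxcl3 at 6333 CPM, and the 41 cells with at least 4 Ptgs2 UMIs and no Serpinb2 held it at 980 CPM. The same values were 9365 and 2465 CPM in Ctrl 2 (28 and 63 cells), 5778 and 5216 CPM in HLU 1 (28 and 61 cells) and 634 and 121 CPM in HLU 2 (227 and 24 cells). Cxcl2 and Wfdc17 were also higher on the Serpinb2 side in all 4 libraries. Fn1, fibronectin, was lower on the Serpinb2 side in Ctrl 1 (1601 and 3244 CPM) and Ctrl 2 (1214 and 3437 CPM) and higher in HLU 1 (2072 and 1181 CPM) and HLU 2 (374 and 225 CPM). Across cells thinned to 2000 UMIs, Cxcl3 and Cxcl2 counts correlated with a Spearman rho of 0.4 in Ctrl 1 (69 cells), 0.68 in Ctrl 2 (104 cells), 0.51 in HLU 1 (112 cells) and 0.42 in HLU 2 (312 cells). Cxcl3 and Il1b gave -0.0072, 0.17, 0.073 and 0.36, and Il1b and Wfdc17 0.14, 0.18, 0.039 and 0.11. Cells of a library share its depth and free RNA, so these rhos are descriptions.

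How common the cells were was compared over libraries, since fewer cells and less RNA per cell cannot be told apart where a class is cut by UMI counts. They made up 0.957% of the barcodes that passed in Ctrl 1 (95% Clopper-Pearson interval 0.747 to 1.21%), 1.39% in Ctrl 2 (1.14 to 1.68%), 1.48% in HLU 1 (1.22 to 1.78%) and 3.5% in HLU 2 (3.13 to 3.91%). Both HLU libraries lay above both Ctrl libraries, with HLU 1 close to Ctrl 2 and HLU 2 far above. The means were 1.17% ± 0.304 for Ctrl and 2.49% ± 1.43 for HLU (SD, n = 2 each; two-sided exact permutation test, p = 0.333, the smallest p that 2 against 2 libraries allow). Barcodes were also thinned to 2000 UMIs, which left out 1080, 975, 1485 and 587 shallower barcodes of Ctrl 1, Ctrl 2, HLU 1 and HLU 2. The shares were then 0.369%, 0.475%, 0.394% and 1.71%, and the groups overlapped (two-sided exact permutation test, p = 0.667). They overlapped too with at least 6 selecting UMIs, where HLU 1 (1.14%) lay below Ctrl 2 (1.19%; two-sided exact permutation test, p = 0.667). The intervals cover counting error only. Without HLU 2 the difference fell from 1.32 to 0.307 percentage points.

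**Figure D2:**
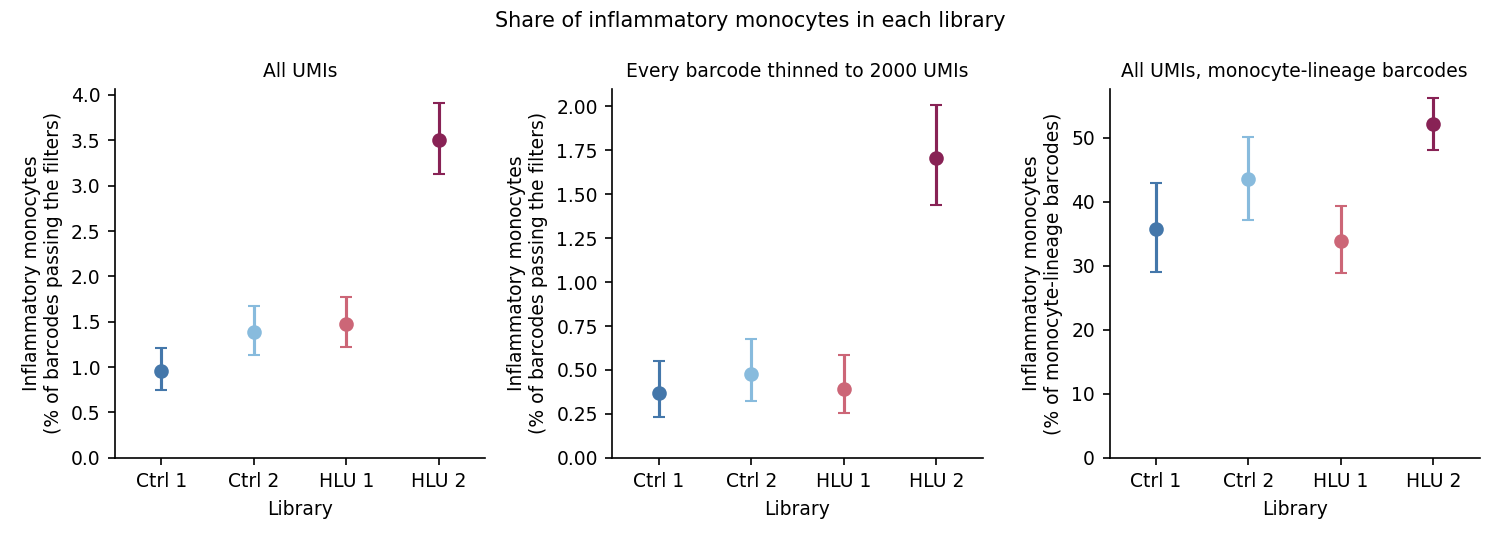
Share of inflammatory monocytes in each library, as percent of barcodes passing the filters (left) and as percent of monocyte-lineage barcodes (right). The middle panel gives the share on the left after thinning to 2000 UMIs, with shallower barcodes left out. Points are libraries and bars 95% Clopper-Pearson intervals; HLU 2 stands highest in each panel, and after thinning HLU 1 at 0.394% lies between the Ctrl libraries.

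Among monocyte-lineage barcodes, those that met every clause but the one on Serpinb2, Ptgs2 and Il1a, the inflammatory monocytes took 35.7% in Ctrl 1 (29 to 42.9%), 43.5% in Ctrl 2 (37.1 to 50.1%), 33.9% in HLU 1 (28.8 to 39.3%) and 52.2% in HLU 2 (48.1 to 56.2%). The HLU libraries were the lowest and the highest of the 4. The means were 39.6% ± 5.52 for Ctrl and 43.1% ± 12.9 for HLU (SD, n = 2 each; two-sided exact permutation test, p = 1). The denominator held skeletal barcodes in Ctrl. Of barcodes with 0 or 1 selecting UMIs, called other monocytes here, 47 of 109 in Ctrl 1 and 40 of 114 in Ctrl 2 had over 2% of their UMIs in skeletal transcripts, against 2 of 180 in HLU 1 and 1 of 221 in HLU 2. Without barcodes that carried skeletal, T or NK transcripts the shares were 50.4%, 53.3%, 34.2% and 53.4%, and the difference between the group means changed sign.

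Beyond the selecting genes, the inflammatory monocytes were higher than other monocytes of the same library in several chemokines and cytokines, in Ptges and Pla2g4a of prostaglandin E2 synthesis and in Nos2. This contrast follows from the selection, so log2 ratios are given without a test. Of 2992 genes with a mean of at least 50 CPM in either class, 584 were higher and 671 lower in all 4 libraries. After the 3 selecting genes, those with the largest ratio in the library nearest to 0 included Cxcl3, Csf3, Cxcl2, Il1b, Met, Nos2, Il12a, Ptges, Phlda1, Thbs1 and Abca1. Among the 15 lowest were Klrd1, Ly6a, Tmem176b, Sox4, Prg4, Nedd4, Gpx3, Col1a2, Lbp, Col5a2, Gzma, Htra1, Rora and Hspb1, which include cartilage, matrix and NK cell genes. For the values that follow, the comparison class was therefore limited to 52, 59, 168 and 199 other monocytes with few skeletal, T or NK transcripts, a restriction chosen after seeing the data. With that restriction on both classes Cxcl1 and Il6 joined the 15 highest and Thbs1 and Abca1 left them. The lowest were Klrd1, Tmem176b, Gpr183, Cd7, Tmem176a, Cenpa, Ighm, Mef2c, Ly86, Ly6a, Apobec3, Lat2, AW112010, Ckb and Gm42031. Lists of osteoclast differentiation and of other lineages were also counted in the limited class. Its 15 osteoclast differentiation genes summed to 1183, 5961, 1257 and 1019 CPM, against 825, 1042, 1249 and 928 CPM in the inflammatory monocytes. That list includes Csf1r, which served for selection. Csf1r led it in the inflammatory monocytes of Ctrl 1, Ctrl 2 and HLU 1 (547, 487 and 596 CPM), and Fos led it in HLU 2. The dendritic cell genes of the limited class summed to 105, 353, 295 and 239 CPM and its B cell genes to 76.6, 450, 242 and 208 CPM. Both lists were above the sums given earlier for the inflammatory monocytes in every library.

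Neutrophil-attracting chemokines were higher than in the limited class of other monocytes. Cxcl1 stood at 773, 1114, 583 and 399 CPM in the inflammatory monocytes of Ctrl 1, Ctrl 2, HLU 1 and HLU 2, and at 58.4, 162, 60.5 and 33.5 CPM in other monocytes. Cxcl2 stood at 6562, 6456, 6297 and 4997 CPM against 1449, 2434, 1678 and 1378 CPM. Against this limited class each was higher in all 4 libraries, Cxcl1 by 6.84-fold to 13-fold and Cxcl2 by 2.65-fold to 4.53-fold on the CPM + 1 scale. In all other monocytes, skeletal barcodes included, Cxcl1 stood at 797, 971, 61.4 and 201 CPM, so that its direction turned in Ctrl 1. Ccl3, which recruits monocytes and T cells, was higher by 6.08-fold, 3.05-fold, 3.16-fold and 1.59-fold. Ccl5, by contrast, was at 48.9 CPM against 1159 in Ctrl 1 and at 187 against 27.7 in Ctrl 2, so its direction differed between libraries. Of 10 chemokine genes outside the selection with enough counts, 5 were higher and 1 lower in all 4 libraries, with a median log2 ratio of 1.08, against 535 higher and 815 lower of 2937 genes and a median of -0.08.

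Of 5 genes of the interleukin 1 system and inflammasome outside the selection with enough counts, 4 were higher and 1 was lower in all 4 libraries. The lower one was Pycard, an inflammasome adaptor, at 172, 95.3, 149 and 265 CPM against 284, 276, 252 and 522 CPM, and its direction also turned in Ctrl 1 against all other monocytes (146 CPM). Il1b was higher by 3.93-fold, 4.29-fold, 3.79-fold and 3.27-fold. Il6, an inducer of the acute phase response, stood at 138, 57.8, 74.6 and 203 CPM against 12.1, 16.6, 20.2 and 33.5 CPM. Il12a, a subunit of interleukin 12, was higher by 7.38-fold, 1.97-fold, 3.44-fold and 2.7-fold, and Nlrp3, the inflammasome sensor, by 4.64-fold, 4.9-fold, 1.77-fold and 2.13-fold. The interleukin 1 antagonist Il1rn was higher by 6.45-fold in Ctrl 1 and by 1.03-fold in HLU 2. Csf3, granulocyte colony-stimulating factor, was at 24.4, 28.4, 20.9 and 447 CPM, and 81.4% of the HLU 2 cells had a Csf3 UMI, against 10%, 7.69% and 7.14% in the other libraries. HLU 2 was high in Csf3 in the other classes too, with 116 CPM in other monocytes (2.02, 2.77 and 0 CPM in the other libraries) and 661 CPM in cells with Inhba, Gpnmb or Pdpn (169, 102 and 3.22 CPM).

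Of 6 genes of prostaglandin synthesis and its receptors outside the selection with enough counts, 2 were higher and 1 was lower in all 4 libraries, with a median log2 ratio of 0.25. Ptges3, another synthase, stood at 188, 196, 197 and 302 CPM against 175, 159, 178 and 324 CPM, so its direction differed between libraries. Ptges, the inducible synthase that acts after cyclooxygenase 2, stood at 263, 318, 127 and 218 CPM against 42.3, 47.1, 43 and 84.9 CPM in other monocytes. Pla2g4a, the phospholipase that releases arachidonic acid, was higher by 2.18-fold, 2.87-fold, 2.71-fold and 1.37-fold. Thbs1, thrombospondin 1, a secreted matrix glycoprotein, was higher by 2.22-fold to 3.24-fold, and Slpi, a secreted inhibitor of neutrophil proteases, by 1.97-fold to 2.48-fold. Slc7a11, the cystine and glutamate exchanger, was higher by 1.87-fold to 3.72-fold.

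Nos2 encodes inducible nitric oxide synthase. It stood at 534, 970, 176 and 17.6 CPM against 109, 132, 36.6 and 1.42 CPM in other monocytes. It was higher in the inflammatory monocytes of every library, yet its own level spanned a wide range, with Ctrl 2 highest and HLU 2 lowest.

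More genes were lower than higher, as the counts above show, and some of the named ones follow. Ccr2, which served for selection, stood at 224, 170, 200 and 41 CPM against 433, 320, 382 and 108 CPM. Tmem176b, which encodes an intracellular cation channel of myeloid and dendritic cells, stood at 5.75, 6.08, 19.4 and 18.1 CPM against 46.4, 220, 181 and 313 CPM. Mef2c, a transcription factor, was at 12.9, 11.2, 14.2 and 7.23 CPM against 36.3, 79, 57.3 and 108 CPM. The dendritic cell and B cell lists were also higher in the limited class in every library, as given above. Their part in the lower genes was not tested. Of 5 genes of MHC class II presentation, 0 were higher and 1 was lower in all 4 libraries. Cd74, the invariant chain, was higher in Ctrl 1 (592 against 288 CPM) and lower in Ctrl 2 (647 against 1146 CPM, but 608 CPM in all other monocytes), HLU 1 (164 against 779 CPM) and HLU 2 (145 against 669 CPM).

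**Figure D3:**
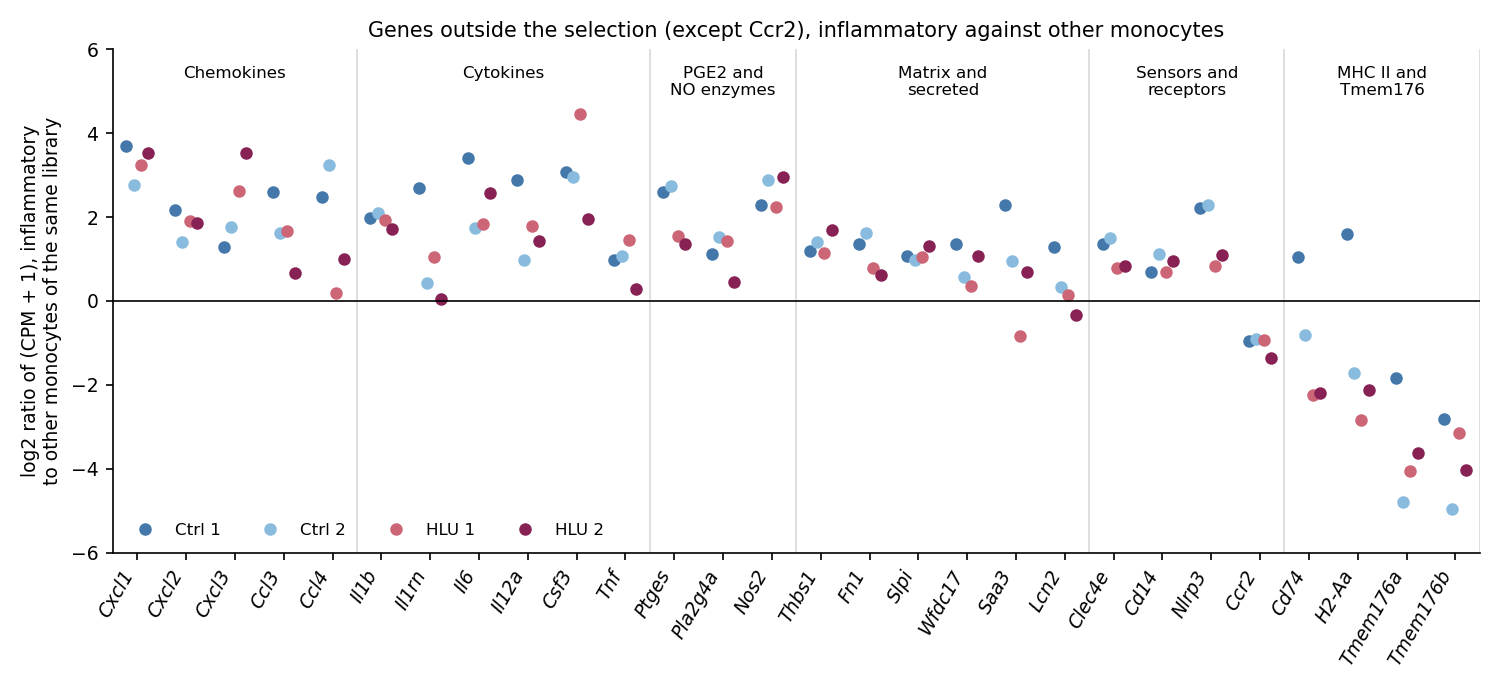
log2 ratio of CPM + 1 between inflammatory monocytes and other monocytes of the same library (those with few skeletal, T or NK transcripts) for genes that took no part in the selection, apart from Ccr2; 1 point per library, no error bar, 0 as a line. Cxcl1, Il1b and Nos2 lie above 0 in all 4 libraries, and Tmem176b lies below 0 in all 4.

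Monocyte-lineage cells with at least 3 UMIs of Inhba, Gpnmb and Pdpn were classed apart, with no demand on Serpinb2, Ptgs2 and Il1a. That sum reached 4 UMIs in 22 of 102 of them in Ctrl 1, 48 of 108 in Ctrl 2, 21 of 68 in HLU 1 and 312 of 368 in HLU 2. With few skeletal, T or NK transcripts they numbered 33, 59, 60 and 337. Their Il1b level was 2026, 1259, 758 and 7179 CPM, above that of the inflammatory monocytes in HLU 2 and below it in the other libraries. Cxcl1 stood at 1728, 2086, 246 and 906 CPM in them and Cxcl3 at 5356, 5605, 2118 and 1733 CPM. Both chemokines were thus higher than in the inflammatory monocytes in Ctrl 1, Ctrl 2 and HLU 2, and lower in HLU 1. Hmox1, haem oxygenase 1, stood at 7225, 6158, 5322 and 2382 CPM in these cells and at 3707, 4055, 4352 and 1083 CPM in the inflammatory monocytes. Fn1 ran the other way, at 485, 634, 365 and 215 CPM against 2421, 2556, 1331 and 335 CPM.

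Whether the inflammatory monocytes of unloaded mice differed from those of control mice was tested on UMI counts summed per library. No gene outside the selection was called: 0 of 7513 genes (0%) had an adjusted p under 0.05 by edgeR's quasi-likelihood test with Benjamini-Hochberg adjustment. At an unadjusted p under 0.05 there were 528 genes, and DESeq2 called 69, with 2 higher and 67 lower in HLU. The 2 higher genes were Dusp2, a phosphatase that acts on MAP kinases (DESeq2 adjusted p = 0.0254, edgeR adjusted p = 0.157), and Itgal, an integrin subunit (DESeq2 adjusted p = 0.0395, edgeR adjusted p = 0.308). Without HLU 1 edgeR called 1664 genes, a count that compares HLU 2 with the Ctrl libraries, and without HLU 2 it called 156. The lone HLU library was then assumed to vary as the Ctrl libraries did. Both HLU libraries were higher than both Ctrl libraries in 1722 of 7513 genes (22.9%) and lower in 1356 (18%), which is the background for the counts below.

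The 10 genes with the smallest p whose groups did not overlap were all lower in HLU. edgeR called none of them, and DESeq2 called all 10. They were Comp, Clu, Nt5e, Lbp, Prg4, Cryab, 1500015O10Rik, Sox9, Bgn and Prelp, and 4 of them are on the skeletal list. Genes off that list had a similar pattern, with Sox9 at 20.1, 66.9, 0 and 0.241 CPM and Prelp at 18.7, 27.4, 0 and 0.482 CPM. Whether the RNA of the genes off the list came from skeletal cells was not tested. Comp, cartilage oligomeric matrix protein, stood at 122, 452, 1.49 and 0.723 CPM (edgeR adjusted p = 0.0582), and Prg4, lubricin of the joint surface, at 280, 1322, 1.49 and 2.65 CPM (adjusted p = 0.0582). All 21 skeletal genes tested were lower in both HLU libraries. The same list was higher in the B cells of both Ctrl libraries, as given above.

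Some genes of antigen presentation were lower in both HLU libraries, and none was called. Cd74 stood at 592 and 647 CPM in Ctrl and at 164 and 145 CPM in HLU (edgeR log2 fold change -2.04 ± 0.36 SE, adjusted p = 0.161). H2-Aa, an MHC class II chain, stood at 226 and 107 against 19.4 and 34.2 CPM (log2 fold change -2.64 ± 0.51 SE, adjusted p = 0.184). The groups did not overlap for either gene. Of 9 MHC class II genes tested, 4 were lower and 1 higher in both HLU libraries, with a median log2 fold change of -1.17 against 0.01 over all genes tested. Nos2 was lower too, and not called (-3.02 ± 0.95 SE, adjusted p = 0.618). Of 14 genes of arginine and polyamine metabolism, 7 were higher and 4 lower in both HLU libraries.

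Hypoxia-inducible factor targets and glycolysis were low in HLU 2. The 18 target genes summed to 8122, 10430, 6801 and 1772 CPM and the 19 glycolysis genes to 30064, 30316, 26116 and 9900 CPM. HLU 1 lay somewhat below the Ctrl libraries and HLU 2 far below. The same lists were measured outside the class. In B cells the target genes summed to 2110, 2604, 1374 and 635 CPM and the glycolysis genes to 8198, 11514, 7939 and 3066 CPM. Over all barcodes the target genes summed to 4876, 6371, 3166 and 1006 CPM. The glycolysis genes summed there to 13858, 18631, 18206 and 6117 CPM, with HLU 1 between the Ctrl libraries. Ero1l, an oxidoreductase of the endoplasmic reticulum, stood at 3299, 3959, 2463 and 117 CPM (log2 fold change -1.55 ± 1.09 SE, edgeR adjusted p = 0.712). Of 19 glycolysis genes tested, 12 were lower and 0 higher in both HLU libraries (median log2 fold change -0.84), and of 17 target genes 8 were lower and 0 higher (median -1.35).

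**Figure D4:**
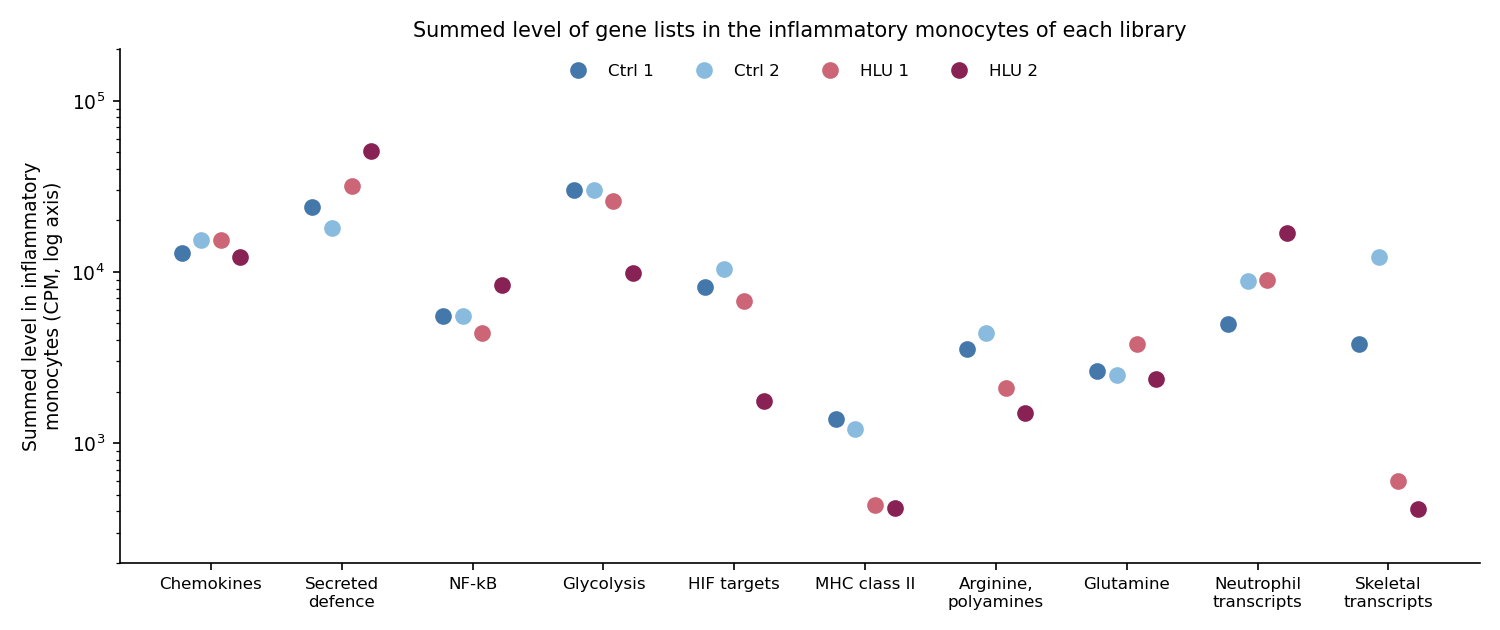
Summed level of 10 gene lists in the inflammatory monocytes of each library (CPM, log axis), 1 point per library and list, no error bar. Skeletal transcripts and MHC class II genes lie lower in both HLU libraries, and glycolysis and HIF (hypoxia-inducible factor) targets lie lowest in HLU 2, at 9900 and 1772 CPM, and next lowest in HLU 1.

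No gene of the inflammatory lists was called. Of 12 chemokine genes tested, 2 were higher and 3 lower in both HLU libraries (median log2 fold change 0.31), and of 14 interleukin 1 and inflammasome genes 1 was higher and 3 lower (median 0.00). Of 10 other cytokine genes, 3 were higher and 0 lower. Of 22 genes of NF-kB and its feedback loops, 1 was higher and 6 lower (median -0.14), and Nfkbia, the inhibitor that NF-kB induces, stood at 1552, 1855, 887 and 1141 CPM. Of 11 genes of secreted defence proteins, 2 were higher and 0 lower (median 0.82). Chil3, a chitinase-like protein of alternatively activated and immature myeloid cells, was one of these, at 46, 65.9, 142 and 2508 CPM (log2 fold change 4.55 ± 1.22 SE, adjusted p = 0.473). Neutrophil transcripts, on which the selection set no limit, were higher in both HLU libraries for 5 of 12 genes tested and lower for 0. In B cells the neutrophil list was higher in HLU too, at 5200 and 23811.5 CPM in Ctrl and 49279 and 51447 CPM in HLU. The part of neutrophil transcripts in these results was not tested.

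Genes of apoptosis and glutamine use, which the study followed in the osteoclast lineage, were not called. Xiap, the caspase inhibitor, stood at 86.2, 84.2, 88.1 and 73.7 CPM (log2 fold change -0.11 ± 0.32 SE, adjusted p = 0.933), and its antagonist Diablo at 58.9, 27.4, 43.3 and 38.1 CPM (-0.12 ± 0.45 SE, adjusted p = 0.957). The groups overlapped for both. The effector genes Bax, at 358, 336, 440 and 559 CPM, and Bak1, at 33, 38.5, 52.2 and 65 CPM, were higher in both HLU libraries (adjusted p = 0.718 and 0.674). Bcl2, a survival gene, stood at 2.87, 9.13, 5.97 and 3.61 CPM and did not pass the filter on low counts. Of 12 apoptosis inhibitors tested, 0 were higher and 3 lower, and of 17 promoters of apoptosis 4 were higher and 2 lower in both HLU libraries.

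The glutamine transporter gene Slc1a5 stood at 12.9, 17.2, 14.9 and 23.4 CPM (log2 fold change 0.33 ± 0.46 SE, edgeR adjusted p = 0.846). Glud1, glutamate dehydrogenase 1, stood at 89.1, 70, 119 and 149 CPM (0.72 ± 0.35 SE, adjusted p = 0.674). Both HLU libraries were above both Ctrl libraries for Glud1. Gclc, which starts glutathione synthesis, stood at 105, 88.2, 213 and 46 CPM, so HLU held both extremes. Of 14 glutamine genes tested, 3 were higher and 1 lower in both HLU libraries (median log2 fold change 0.35). Among genes named for pre-osteoclasts, Tnf stood at 48.9, 44.6, 90.3 and 153 CPM (1.36 ± 0.40 SE, adjusted p = 0.545), Ccl3 at 1072, 984, 1317 and 1486 CPM (adjusted p = 0.76) and Ctsb at 723, 749, 949 and 933 CPM (adjusted p = 0.808). All 3 were higher in both HLU libraries and none was called.

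Whether the gap between inflammatory and other monocytes changed with unloading was tested as an interaction with the library as a block. edgeR called 42 of 9114 genes (0.461%), 35 with a higher and 7 with a lower log2 ratio of inflammatory to other monocytes in HLU. Among those with a lower one were Ccl4, Mxd1, Nlrp3 and Ptges. Ccl4 stood at 139 and 855 CPM in the inflammatory and at 13.1 and 54.4 CPM in other monocytes of Ctrl, and at 189 and 1801 against 158 and 868 CPM in HLU (log2 change of the difference -3.004, adjusted p = 0.0199). Ptges stood at 263 and 318 against 25.4 and 37 CPM in Ctrl and at 127 and 218 against 47.2 and 87.8 CPM in HLU (-1.75, adjusted p = 0.0399). The other monocytes of Ctrl held the skeletal barcodes counted above. With barcodes carrying skeletal, T or NK transcripts left out of both classes 13 genes were called, 6 of them among the 42. These 6 were Acp5, Marco, Ednrb, Ccl4, Stfa3 and Rbp4, and not Nlrp3 or Ptges. Marco had 0 CPM in both classes of Ctrl 1. Its log2 ratios to all other monocytes were 0 in Ctrl 1, -7.09 in Ctrl 2, -0.207 in HLU 1 and -0.708 in HLU 2, so the groups overlapped. The osteoclast gene Acp5 stood at 173 and 1742 CPM in the limited other monocytes of Ctrl and at 8.49 and 53.3 CPM in those of HLU. Ctsk, another osteoclast gene among the 13, stood at 86.7 and 1875 CPM against 5.83 and 0.472 CPM. The part of osteoclast transcripts in these calls was not tested. Against the limited class of other monocytes the log2 ratio of Ptges was still higher in Ctrl (2.61 and 2.73) than in HLU (1.54 and 1.35), as was that of Nlrp3 (2.22 and 2.29 against 0.82 and 1.09).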

How the data were processed

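Single-cell RNA sequencing (10x Genomics 3′ kit) covered 2 Ctrl and 2 HLU mice, 1 library each. The authors made the deposited UMI counts with Cell Ranger 6.0.0 and the mm10-3.0.0 reference and deposited them raw, for 31053 genes and 40003 barcodes. The members and the gene lists were chosen with earlier results of these data known. Barcodes were filtered and classed in Python 3.11.15 (numpy 2.4.6, scipy 1.17.1, pandas 2.3.3), with doublets scored by Scrublet in scanpy 1.11.5 (0.8% per 1000 barcodes) and kept in the main analysis, in which they were 44 of 598 cells. CPM are UMIs per 1000000 UMIs of a class, and ratios use CPM + 1. Counts summed per library were tested in R 4.3.3 with edgeR 4.0.16 (TMM, filterByExpr, quasi-likelihood) and DESeq2 1.42.0 as an alternative, at an adjusted p of 0.05. The study compared cells by a Wilcoxon test; libraries were the replicates here. The tests were checked on simulated data. There, 200 of 7149 genes were given a log2 change of 2 between HLU and Ctrl in the inflammatory monocytes. Of these 200, 110 were recovered, all 110 with the right sign, and there were 4 false calls. Selecting genes stayed out of all counts of calls. Shares had two-sided exact permutation tests. Depth ranged from 47819046 to 99849070 UMIs per library. Gene positions came from GENCODE M21 on mm10 and promoters from RefSeq (GRCm38.p6).

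Named genes were those of the selection and its markers, list members led by their mean level, the 15 largest and 15 smallest ratios to other monocytes, up to 10 rises and falls for unloading (the 10 smallest p where fewer were called), up to 5 interaction genes each way, and the apoptosis, glutamine and pre-osteoclast genes of the study. A few genes that this rule names are not reported here. Alternatives covered the tool, low-count filter, scaling, replicate block, cell number, doublets, thinning, selection threshold, haemoglobin limit, transcripts of other cells and each library left out.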

Additional observations from a re-analysis of the deposited data

Results flagged for a closer look

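The test of a change in the gap between inflammatory and other monocytes called 42 genes by edgeR's quasi-likelihood test, and the 10 named here had HLU log2 ratios on 1 side of both Ctrl ratios. The log2 ratio of inflammatory to other monocytes was higher in HLU for Ccl7 (6.68), Thbs2 (5.21), Pmp22 (4.90), Cav1 (4.46) and Rbp4 (4.36). It was lower in HLU for Stfa3 (-8.48), Ccl4 (-3.004), Mxd1 (-1.97), Nlrp3 (-1.95) and Ptges (-1.75). Thbs2 stood at 108 and 60.9 CPM in other monocytes of Ctrl and at 2.54 and 0.91 CPM in those of HLU, and with barcodes carrying skeletal transcripts left out at 2.02, 0, 0 and 0 CPM. Stfa3 had 0 CPM in other monocytes of both Ctrl libraries, so its estimate depends on the prior count, and so does that of Rbp4, which had 0 CPM in other monocytes of HLU 2 (of both HLU libraries once those barcodes were left out). Of the 10, only Rbp4, Stfa3 and Ccl4 were also called with barcodes carrying skeletal, T or NK transcripts left out. Of the others, Ptges had log2 ratios of 2.61 and 2.73 in Ctrl against 1.54 and 1.35 in HLU when other monocytes were limited in this way. Nlrp3 had 2.22 and 2.29 against 0.82 and 1.09. Without that limit the Ctrl ratios were larger, at 3.32 and 3.07 for Ptges and 3.14 and 2.86 for Nlrp3. The part of barcodes carrying skeletal, T or NK transcripts in the calls was not tested further.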

How the results depend on the processing

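The mean share of barcodes stayed higher in HLU under all 10 alternatives, by 0.307 to 2.33 percentage points with each library left out and by 0.629 points after thinning. The libraries of the groups overlapped after thinning and with at least 6 selecting UMIs. The share of monocyte-lineage barcodes, 3.44 points higher in HLU, reversed after thinning (-5.29), without barcodes carrying skeletal, T or NK transcripts (-8.04), and with each library left out it ran from -5.68 to 12.6 points, being negative without Ctrl 1 (-0.458) and without HLU 2 (-5.68).

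For unloading within the class the call count of 0 stayed at 0 with at least 10 counts in every library, DESeq2 size factors, at least 6 selecting UMIs or without listed transcripts of other cells. It was 69 by DESeq2, 341 without the low-count filter, 5 with equal cell numbers, 6 without doublets, 4 of 843 genes after thinning and 4 without barcodes carrying skeletal, T or NK transcripts (chosen after seeing the data). Each library left out gave 20 to 1664 calls: 62 without Ctrl 1, 20 without Ctrl 2, 1664 without HLU 1 and 156 without HLU 2. Differences between replicates 1 and 2 of Ctrl hardly correlated with those of HLU (r = 0.034 over 2600 genes). Since HLU 2 stood apart, this cannot show whether the replicate numbers paired the samples. A replicate block gave 68 calls. The causes were not tested.

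The 42 interaction calls became 108 by DESeq2, 616 without the low-count filter, 99 without doublets, 21 with other monocytes of 0 to 3 selecting UMIs, 13 without barcodes carrying skeletal, T or NK transcripts, and 11 to 651 with each library left out (651 without Ctrl 1, 272 without Ctrl 2, 68 without HLU 1, 11 without HLU 2).

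Of 24 named genes, 7 changed the sign of their log2 fold change in 8 of 328 alternatives. With each library left out, Cxcl3 ran from -3.05 to 0.47, Il1b from -0.54 to 0.84, Wfdc17 from -1.51 to 1.97 and Slc1a5 from -0.0818 to 0.60, each with its sign changed without HLU 2. Diablo ran from -0.63 to 0.59 (changed without Ctrl 1) and Gclc from -1.08 to 1.09 (changed without HLU 1). After thinning Cxcl3 was 0.25 and Ctsb -0.0347. In 84 of the 328 a gene gained a call with the same sign, mostly one of the 10 genes lower in HLU that edgeR did not call. The others were Tnf without the low-count filter (1.45, adjusted p = 0.044) and, without HLU 1, Tnf (1.70), Glud1 (0.90), Cxcl3 (-3.05) and Wfdc17 (1.97, adjusted p = 8.1e-07). Called with the other sign were Wfdc17 without HLU 2 (-1.51, adjusted p = 0.012) and Gclc without HLU 1 (-1.08, adjusted p = 0.01). Having 2 libraries per group and 70 cells in Ctrl 1 limits precision. With 2 against 2 libraries an exact test cannot go below p = 0.333.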

Other observations

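Many barcodes with at least 4 UMIs of Serpinb2, Ptgs2 and Il1a together did not meet the other clauses. Of 2102 such barcodes, 805 did not reach 4 UMIs of Csf1r, Ms4a6c, Ccr2 and Vcan, namely 230 in Ctrl 1, 344 in Ctrl 2, 93 in HLU 1 and 138 in HLU 2. A further 511 were set aside for Inhba, Gpnmb or Pdpn, 412 of them in HLU 2, and 125 for cell cycle genes, 111 of them in HLU 2. The 805 and the 125 enter no comparison as classes of their own, and the cell type of the 805 was not tested.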
